A study of Mus musculus with 48 samples.

Results

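The response of brain pericytes to ischemic stroke was compared with that of microglia from the same mice, gene by gene. The values were the deposited normalized read counts, and each was taken as log2(value + 1), so that all effects below are on that scale and understate the change of genes with low counts. For every gene and each of the 6 replicates, the level in the contralateral (control) hemisphere was subtracted from the level in the ipsilateral (ischemic) hemisphere, which gave 6 pericyte and 6 microglial differences, and the means of these are called the stroke effect in pericytes and in microglia. A gene was tested if its mean was 10 or more in both cell types, which held for 11871 of the 24973 genes in the table. The 24 libraries used, of 48 in the series, were contralateral pericytes, ipsilateral pericytes, contralateral microglia and ipsilateral microglia, with 6 of each. All mice were adult (12 to 15 weeks) male wild-type C57BL/6 mice in which the right middle cerebral artery was blocked by a filament for 1 h and reperfused for 23 h (transient middle cerebral artery occlusion, tMCAO), so that the control hemispheres came from operated mice and no sham group was used. A replicate was a pool of the cerebra of 3 to 4 mice, and animals with mild deficits had been left out by the study. Microglia had been sorted as CD45low/CD11b+ cells, and pericytes as CD45-, ACSA2- and VECAD- cells positive for both NG2 and PDGFRβ. The comparison asks which genes responded unequally in both cell types of the same pools.

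Pericytes are mural cells embedded in the basement membrane of capillaries, where they help to maintain the blood-brain barrier and vessel tone and supply matrix and growth signals to the endothelium. Microglia are the resident macrophages of the brain, and after ischemia they leave their surveying state, lose homeostatic gene expression and take up lipid and cell debris. Both cell types sense low oxygen through hypoxia-inducible factors, which are known to raise the enzymes of glycolysis, and both receive signals of the TGF-beta family, which in microglia maintain the homeostatic state.

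The GEO titles of the ipsilateral pericyte and microglial libraries name the opposite cell type to their column names. Cell type was taken from the description labels, which the column names repeat, and was then checked against markers, which went with the column names. The summed level of 13 pericyte markers was 50164 to 227783 normalized counts in the 12 libraries taken as pericytes and 218 to 3822 in the 12 taken as microglia, and all 13 were above 0 in each group. The 12 microglia markers summed to 346658 to 719036 in microglia and to 597 to 92530 in pericytes. Relative to the microglial library of the same replicate and hemisphere, the pericyte libraries carried 0.083 to 5.41% of the microglia marker level contralaterally, and 3.61, 9.22, 26.7 and 20.1% ipsilaterally in replicates 1 to 4. The ipsilateral share in replicates 5 and 6 was 0.171 and 0.158%. Microglia markers in pericyte libraries therefore moved with the hemisphere in replicates 1 to 4, and values for replicates 5 and 6 alone are given beside many of the results below. These sets of replicates also differed in microglial effects, as given for some lists below, so they differ in more than the marker share. Fewer cells of a type and less RNA per cell cannot be told apart in bulk libraries. The libraries summed to 10549900 to 16942165 normalized counts, and the estimated number of reads on genes was 5000000 to 17100000 (median 11850000), so that a count of 3 reads was worth at most 8 normalized counts.

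**Figure D1:**
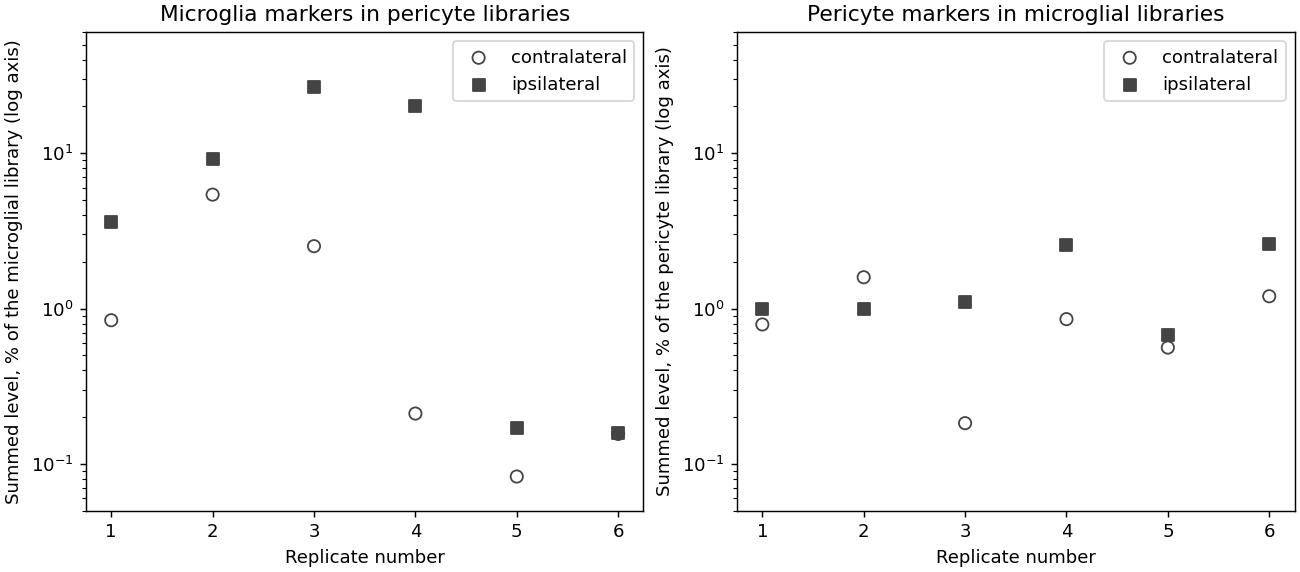
Summed level of microglia markers in each pericyte library (left) and of pericyte markers in each microglial library (right), as % of the same sum in the library of the other cell type from the same replicate and hemisphere, on a log axis. Open circles are contralateral and filled squares ipsilateral libraries. The ipsilateral pericyte libraries of replicates 1 to 4 reached 3.61 to 26.7%, those of replicates 5 and 6 stayed at 0.158 to 0.171%, and pericyte markers in microglia ranged from 0.183 to 2.59%.

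The stroke effect differed between the cell types for 140 genes, or 1.18% of those tested (limma on the 12 differences, Benjamini-Hochberg adjusted p of 0.05 or less and a difference of at least 1.5-fold, the fold threshold of the study). In 70 of them (0.59%) the effect was higher in pericytes and in 70 (0.59%) it was higher in microglia. Without adjustment 1941 genes had a p under 0.05. The 6 pericyte differences did not overlap the 6 microglial differences for 416 genes (3.5% of those tested), and for 62 of the 70 and 59 of the 70 called genes. Within pericytes 298 genes (2.51%) were upregulated and 116 (0.977%) downregulated at the same thresholds, and within microglia 575 (4.84%) were upregulated and 530 (4.46%) downregulated. The median effect over all genes tested was -0.02 in pericytes and -0.14 in microglia, and the median difference was 0.09. The calls depended on how the spread was modelled. With the replicate number as a block, which leaves the sizes as they are, 1 gene (*Lgals3*) was called and 1653 had an unadjusted p under 0.05. All 140 genes had an adjusted p of 0.2 or less there, as did 381 of all genes tested. Leaving out replicates 1 to 6 in turn left 16, 243, 9, 3, 42 and 13 calls, of which *Iqgap1* was called each time. Below, each limma adjusted p is followed by the value with the block.

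**Figure D2:**
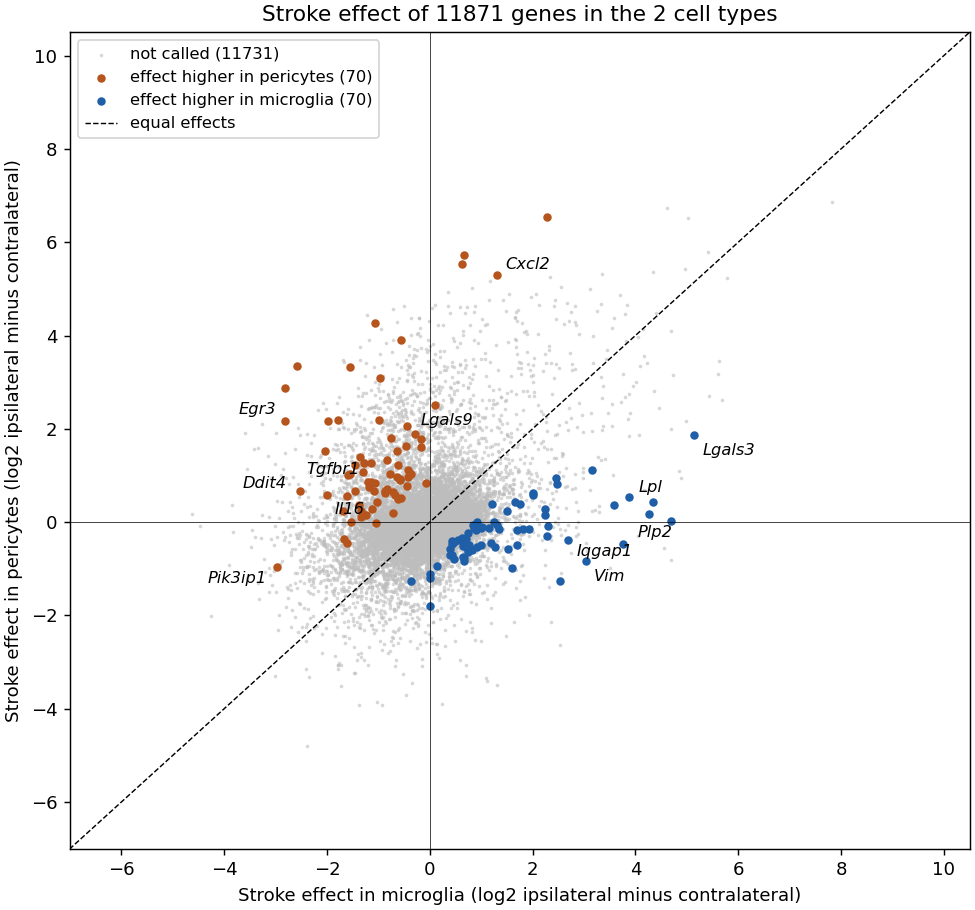
Stroke effect in pericytes (y axis) against stroke effect in microglia (x axis), both as log2 ipsilateral minus contralateral, for 11871 genes. Each point is a gene, orange and blue points are the 70 and 70 genes called, and the dashed line marks equal effects. The median microglial effect was -1.04 for the orange and 1.09 for the blue genes, and the median pericyte effect 0.99 and -0.37.

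The groups of called genes differed in where the gene was mainly expressed. Over all 11871 genes tested, 5610 had the higher mean in pericytes and 6257 in microglia. Of the 70 genes with a higher effect in microglia, 62 had the higher mean in pericytes, 55 were upregulated in microglia and 10 were downregulated in pericytes. In 21 of these 70 the microglial mean was under 20% of the pericyte mean, which held for 1066 of the 11871 genes tested. Of the 70 genes with a higher effect in pericytes, 64 had the higher mean in microglia, 34 were upregulated in pericytes and 39 were downregulated in microglia. In 40 of these 70 the pericyte mean was under 20% of the microglial mean, which held for 825 of the 11871 genes tested. Opposite effects, that is a called difference with an effect above 0 in one cell type and below 0 in the other (adjusted p of 0.05 or less in each), were found for 8 genes (0.0674%). Most of these calls depended on the fit. Such genes numbered 1 after a microglial share, the median ratio of the microglia markers, was subtracted from each pericyte library (a correction chosen after seeing the data), and 0 in replicates 5 and 6, with the block, without a variance trend and in a fit of all 24 libraries with no block. Values that the subtraction took below 0 were set to 0. The same direction in both cell types was found for 104 genes, of which 67 rose and 37 fell.

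Among the leading genes with a higher effect in microglia were *Iqgap1*, *Vim*, *Anxa5*, *Plp2*, *Lmna*, *Ehd1*, *Ccnd2* and *2010111I01Rik*. All of these had the higher mean in pericytes, where none of their effects passed the test. *Iqgap1* (chr7:80711583-80803416, minus strand, GRCm38), which encodes a scaffold of the actin cytoskeleton, had the smallest p of all genes. Its level in contralateral microglia was 234 to 595 (median 383), and in ipsilateral microglia it was 1548 to 3377 (median 2452.5). In pericytes it was 3305 to 6352 (median 5180) contralaterally and 3261 to 5124 (median 3935) ipsilaterally. The microglial ranges were far apart, whereas the pericyte ranges overlapped over most of their width. The effect was 2.68 ± 0.23 (SE, n = 6) in microglia and -0.38 ± 0.23 in pericytes, a difference of -3.06 ± 0.33 (limma, adjusted p = 0.00262, and 0.0526 with the block). It was called in all 6 fits that left out a replicate.

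*Vim*, the intermediate filament protein vimentin, was 142 to 673 (median 402.5) in contralateral and 1009 to 5055 (median 3792.5) in ipsilateral microglia, with no overlap. In pericytes it was 31368 to 57802 (median 49588) contralaterally and 18555 to 36373 (median 24812.5) ipsilaterally. The effects of 3.04 ± 0.37 in microglia and -0.84 ± 0.37 in pericytes differed by -3.87 ± 0.53 (limma, adjusted p = 0.00628, and 0.0745 with the block), and in replicates 5 and 6 alone by -2.1. *Anxa5*, the phosphatidylserine-binding annexin A5, rose in microglia, where it was 814 to 1334 (median 938.5) contralaterally and 2050 to 8473 (median 6588) ipsilaterally. Its 6 pericyte differences lay between -0.19 and 0.0, and the difference in effect was -2.39 ± 0.33 (limma, adjusted p = 0.00628, and 0.0745 with the block). *Anxa2*, another annexin and a member of the cytoskeleton list, had effects of 2.48 ± 0.25 in microglia and 0.81 ± 0.25 in pericytes, and they differed by -1.67 ± 0.35 (limma, adjusted p = 0.0389, and 0.116 with the block). *Tuba1c*, an alpha-tubulin, differed by -1.37 ± 0.25 (limma, adjusted p = 0.02, and 0.119 with the block).

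The same shape was seen for 5 further leading genes. *Plp2*, a proteolipid of the endoplasmic reticulum membrane, was 0 to 25 (median 13.5) in contralateral and 55 to 635 (median 201) in ipsilateral microglia, against 536 to 871 (median 702.5) and 539 to 1001 (median 836.5) in pericytes, and its effects differed by -4.09 ± 0.6 (limma, adjusted p = 0.0108, and 0.0745 with the block). With contralateral microglial levels this low the size depends on the pseudocount, and it was -3.01 with a pseudocount of 10 and -4.72 with 0.1. *Lmna*, which encodes the nuclear lamins A and C, had effects of 1.52 ± 0.22 in microglia and -0.57 ± 0.22 in pericytes (difference -2.09 ± 0.31, limma, adjusted p = 0.0108, and 0.101 with the block). *Ehd1*, a protein of endosome recycling, had effects of 1.7 ± 0.21 and -0.18 ± 0.21 (difference -1.88 ± 0.29, limma, adjusted p = 0.0109, and 0.0815 with the block). For *Ccnd2*, the G1 phase cyclin D2, they were 1.27 ± 0.2 and -0.54 ± 0.2 (difference -1.81 ± 0.28, limma, adjusted p = 0.0109, and 0.0994 with the block). *2010111I01Rik* had effects of 1.7 ± 0.23 and -0.5 ± 0.23 (difference -2.2 ± 0.33, limma, adjusted p = 0.0108, and 0.0815 with the block). In all 5 the 6 microglial differences lay above all 6 pericyte differences. Of the 28 tested genes of the tubulin and actin cytoskeleton list, 3 were called, all with a higher effect in microglia, and 14 were upregulated within microglia against 5 within pericytes. The median difference of the list was -0.1, against 0.09 over all genes, with 15 of 28 genes below 0.

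**Figure D3:**
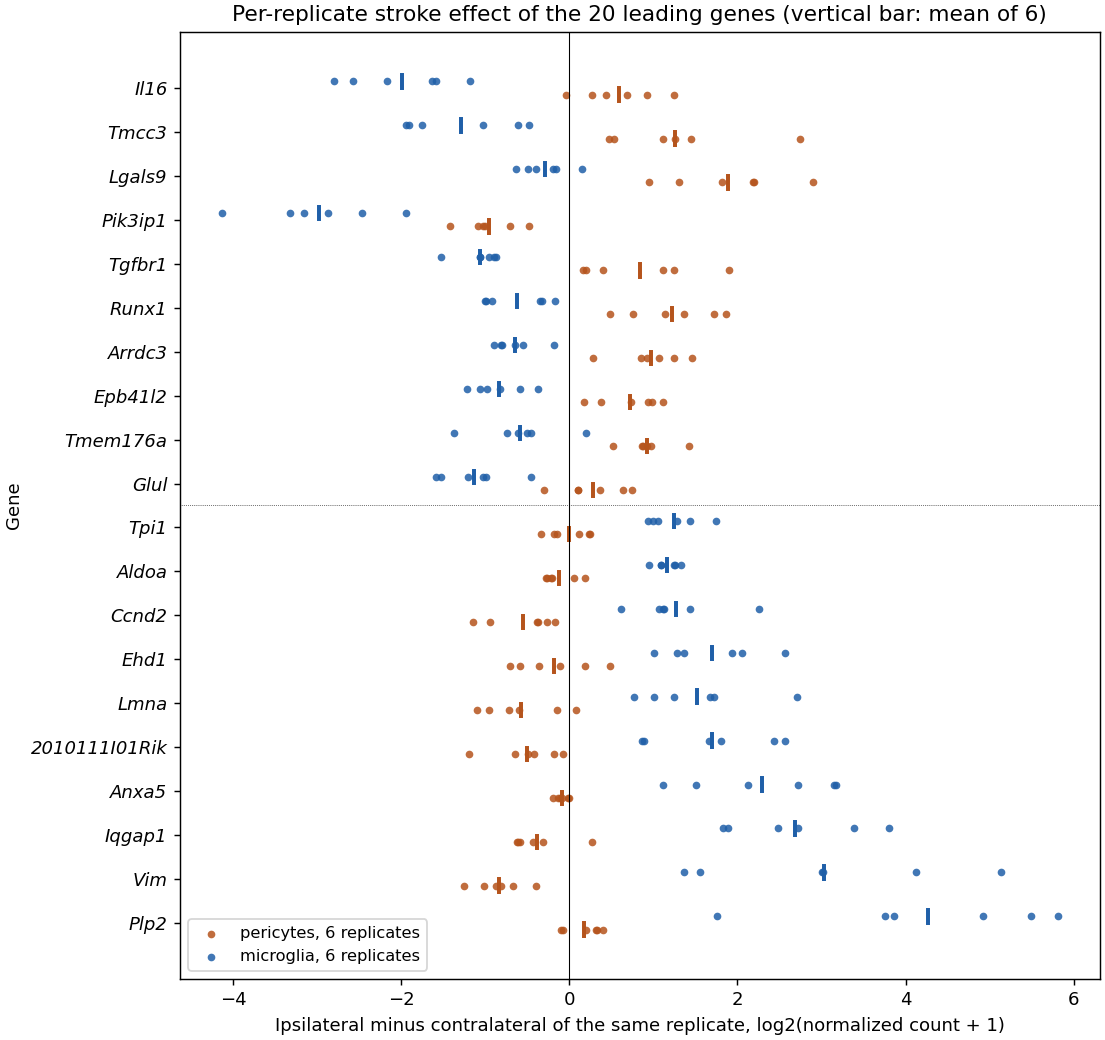
Ipsilateral minus contralateral difference of each replicate, on the log2(normalized count + 1) scale (x axis), for the 10 leading genes with a higher effect in pericytes (above the dotted line) and the 10 with a higher effect in microglia (below). Orange points are 6 pericyte and blue points 6 microglial replicates, and vertical bars are their means. The colors do not overlap for any of the 20 genes, and *Plp2*, *Vim* and *Iqgap1* are farthest apart among the lower 10.

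Several glycolytic enzymes rose in microglia and had smaller effects, or effects below 0, in pericytes. Of 33 hypoxia response and glycolysis genes tested, 6 were called, and all 6 (*Gpi1*, *Aldoa*, *Tpi1*, *Gapdh*, *Pgk1* and *Pkm*), which encode enzymes of glycolysis, had the higher effect in microglia. Over the list, 9 genes were upregulated within microglia and 3 within pericytes. *Aldoa*, aldolase A, was 5515 to 7695 (median 7036.5) in contralateral and 11778 to 18128 (median 15566) in ipsilateral microglia. In pericytes it was 16485 to 26648 (median 22957) and 14381 to 22849 (median 20923), respectively. The pericyte ranges overlapped and the microglial ranges did not. The effects of 1.16 ± 0.12 and -0.12 ± 0.12 differed by -1.28 ± 0.17 (limma, adjusted p = 0.00628, and 0.0815 with the block). *Tpi1*, triosephosphate isomerase, was 1449 to 1984 (median 1836) in contralateral and 3481 to 6221 (median 3951) in ipsilateral microglia, with effects of 1.24 ± 0.13 in microglia and -0.01 ± 0.13 in pericytes (difference -1.25 ± 0.19, limma, adjusted p = 0.0108, and 0.0815 with the block). *Pgk1*, phosphoglycerate kinase, had nearly equal means in both cell types, and its effects were 1.66 ± 0.16 in microglia and 0.43 ± 0.16 in pericytes (difference -1.22 ± 0.23, limma, adjusted p = 0.025, and 0.127 with the block). *Pkm*, the muscle-type pyruvate kinase, was the only one of the 6 whose ranges of differences overlapped, since microglial replicate 2 was 0.93 and the highest pericyte value 1.24 (difference -1.38 ± 0.3, limma, adjusted p = 0.0422, and 0.124 with the block). *Gapdh*, glyceraldehyde-3-phosphate dehydrogenase, had effects of 0.4 in pericytes and 1.22 in microglia. *Gpi1*, glucose-6-phosphate isomerase, had -0.58 and 0.39 and was upregulated in neither. The list did not move as one, since *Hk2*, a hexokinase, and *Slc16a3*, a lactate transporter, were upregulated in pericytes (effects 2.54 and 2.93) and had effects of -0.52 and 0.64 in microglia (limma, adjusted p of the difference 0.0606 and 0.0515). Both were picked here after their values were seen. The median difference of the list was -0.32, and in replicates 5 and 6 it was -0.46.

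Because 6 enzymes of one pathway were called in one direction, the bases before their start sites are shown for 3 of them. The windows are from RefSeq promoters on GRCm38.p6, 250 bases upstream of a start site on the gene's strand, 5′ to 3′. All 3 windows shown hold a match, whereas other windows of the 6 enzymes, which are not shown, held none. Capitals mark the letters ACGTG or GCGTG, the core bound by hypoxia-inducible factors, on either strand (CACGT or CACGC on the other strand).
*Aldoa*, chr7:126799255-126799504, minus strand: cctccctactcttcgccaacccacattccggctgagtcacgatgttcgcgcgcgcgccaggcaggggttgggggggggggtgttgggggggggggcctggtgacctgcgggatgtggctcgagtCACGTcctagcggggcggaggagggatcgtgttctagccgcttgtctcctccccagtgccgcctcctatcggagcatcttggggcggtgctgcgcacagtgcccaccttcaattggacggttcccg
*Gapdh*, chr6:125165774-125166023, minus strand: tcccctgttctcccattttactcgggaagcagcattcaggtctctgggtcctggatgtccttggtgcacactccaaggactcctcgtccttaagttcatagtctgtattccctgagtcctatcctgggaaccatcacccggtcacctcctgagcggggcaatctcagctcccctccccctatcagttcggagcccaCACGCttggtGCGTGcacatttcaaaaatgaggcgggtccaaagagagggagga
*Pgk1*, chrX:106186850-106187099, plus strand: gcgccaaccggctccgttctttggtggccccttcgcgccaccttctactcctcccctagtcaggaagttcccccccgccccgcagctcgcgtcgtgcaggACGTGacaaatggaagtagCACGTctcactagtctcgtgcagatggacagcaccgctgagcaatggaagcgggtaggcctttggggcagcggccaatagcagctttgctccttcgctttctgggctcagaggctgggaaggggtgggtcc
The window of *Aldoa*, the second of 3 that RefSeq lists, held 1 match, and the first listed windows of *Gapdh* and *Pgk1* held 2 each. The first listed windows of the other enzymes, *Aldoa*, *Tpi1*, *Gpi1* and *Pkm*, held none, so that 2 of the 6 had a match there, and the second window of *Pkm* held 1. These letters are common. Of all 27025 genes in the promoter table, 38.6% had a match in their first listed window, and of the 9103 tested genes that could be matched, 57.4%. Among 28 matched genes of the hypoxia and glycolysis list 21 had one (75.0%), and among the called genes 25 of 55 matched in each direction (45.5%). A match is a description of the letters and not of binding.

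Many proteasome genes rose in microglia, and nearly all had the higher effect there. Of 38 proteasome subunit genes tested, 30 were upregulated within microglia and 1 within pericytes, and 35 had a difference below 0. The median effect was 0.89 in microglia and 0.2 in pericytes, and the median difference was -0.66, against 0.09 over all genes. Called differences were found for *Psmc1* and *Psmd4*, subunits of the regulatory particle. *Psmc1* was 1139 to 1534 (median 1420.5) in contralateral and 2047 to 4162 (median 2651.5) in ipsilateral microglia and 2303 to 3274 (median 2662.5) and 2028 to 2925 (median 2518.5) in pericytes, and its effects differed by -1.12 ± 0.22 (limma, adjusted p = 0.0317, and 0.146 with the block). *Psmd4* differed by -0.98 ± 0.2 (limma, adjusted p = 0.0334, and 0.129 with the block). The exceptions to the direction were *Psmb8* and *Psmb9*, subunits of the immunoproteasome, with differences of 1.25 and 1.51, and *Psmb10* with 0.07, and none of these was called. The median difference of the proteasome list was -0.32 in replicates 5 and 6, with 32 of 38 genes below 0.

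Of 75 oxidative phosphorylation genes, 72 had a difference below 0, with a median of -0.59, and 17 were upregulated within microglia and 0 within pericytes. *Atp5b* and *Atp5c1*, subunits of the mitochondrial ATP synthase, were called. *Atp5b* was 9915 to 12890 (median 11231) in contralateral and 15130 to 19070 (median 16324.5) in ipsilateral microglia, and 30891 to 35856 (median 33294.5) and 21372 to 31785 (median 25047.5) in pericytes, so that it was higher ipsilaterally in all 6 replicates of microglia and lower in all 6 of pericytes (difference -0.94 ± 0.17, limma, adjusted p = 0.0198, and 0.174 with the block). *Atp5c1* differed by -0.9 ± 0.19 (limma, adjusted p = 0.0401, and 0.177 with the block), and *Ndufa10*, a subunit of complex I, by -1.28 ± 0.28 (limma, adjusted p = 0.0422, and 0.129 with the block). The pattern over the list rested on replicates 1 to 4, where the median difference was -0.98. It was 0.01 in replicates 5 and 6, with 37 of 75 genes below 0. The median microglial effect was 0.82 in replicates 1 to 4 and 0.13 in replicates 5 and 6, and the median pericyte effect -0.17 and 0.18. The 79 cytosolic ribosomal protein genes held no call, and their median difference of -0.16 turned to 0.52 in replicates 5 and 6. Their median microglial effect was 0.73 in replicates 1 to 4 and 0.04 in replicates 5 and 6, and the median pericyte effect 0.22 and 0.51. Of 26 heat shock genes 22 had a difference below 0, with a median of -0.43. The called members were *Tcp1*, a subunit of the cytosolic chaperonin (0.85 ± 0.12 in microglia and -0.13 ± 0.12 in pericytes, difference -0.98 ± 0.17, limma, adjusted p = 0.0185, and 0.125 with the block), and *Cryab*, the small heat shock protein alpha-B crystallin (1.0 ± 0.23 and -0.48 ± 0.23, difference -1.49 ± 0.33, limma, adjusted p = 0.047, and 0.16 with the block). *Prdx1*, a peroxiredoxin and the called member of 19 Nrf2, iron and metal genes, rose in microglia, where it was 3386 to 4811 (median 3994.5) contralaterally and 8012 to 34749 (median 15752.5) ipsilaterally, and was 4379 to 6985 (median 5417.5) and 6360 to 10812 (median 7527) in pericytes (difference -1.43 ± 0.29, limma, adjusted p = 0.0334, and 0.125 with the block).

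**Figure D4:**
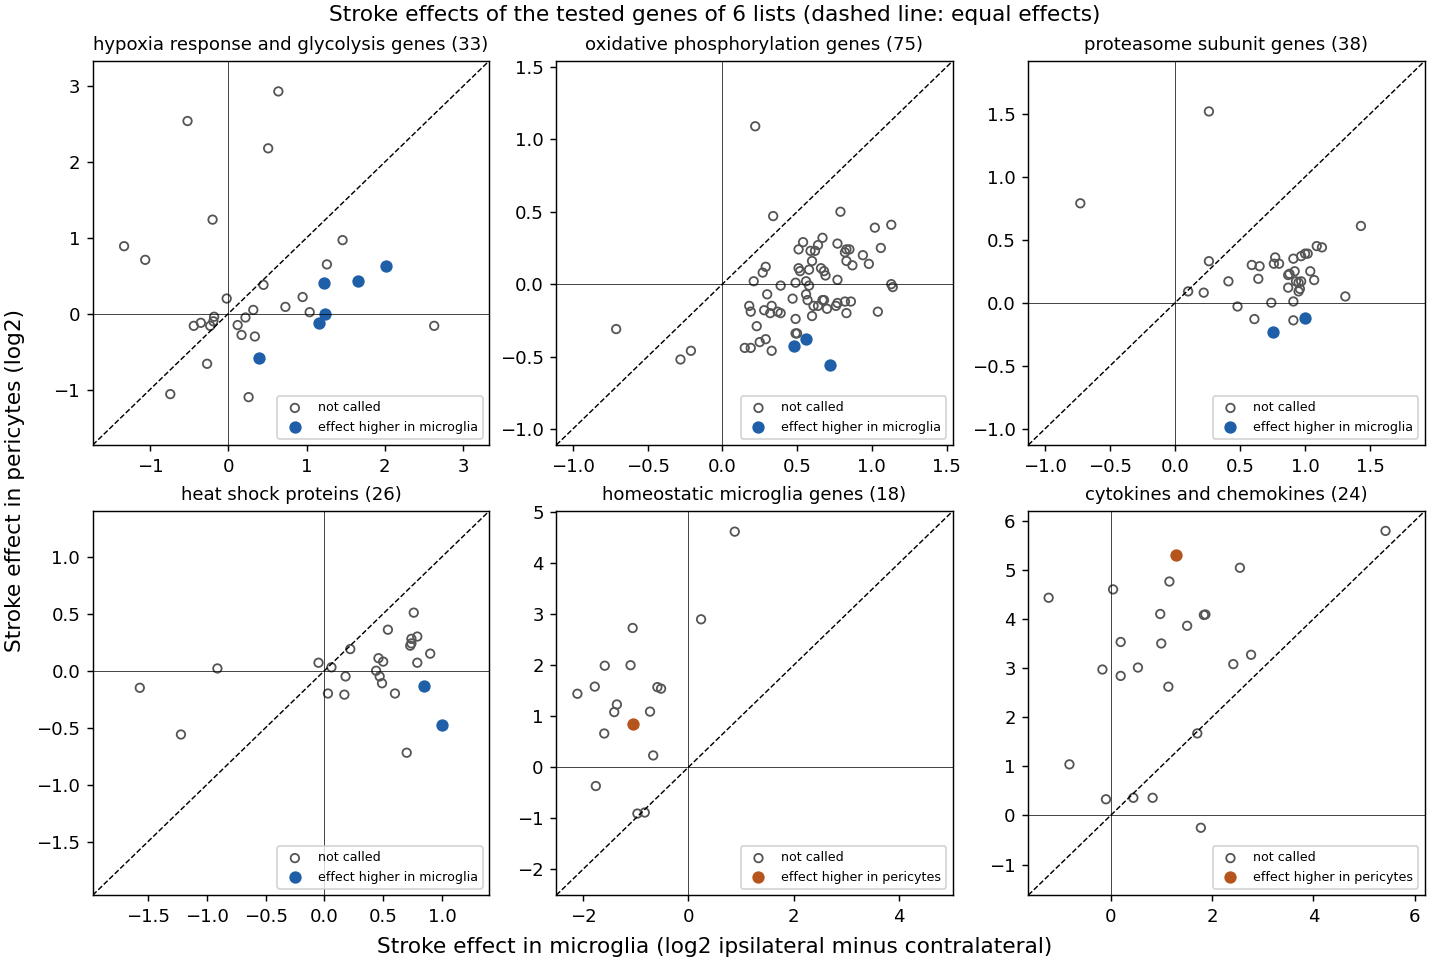
Stroke effect in pericytes (y axis) against stroke effect in microglia (x axis), both as log2 ipsilateral minus contralateral, for the tested genes of 6 lists. Each point is a gene, filled points are called, and the dashed line marks equal effects. The oxidative phosphorylation and proteasome genes lie below the line (72 of 75 and 35 of 38), whereas 17 of 18 homeostatic microglia genes and 20 of 24 cytokine genes lie above it.

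Of 24 genes of lipid uptake and phagocytic activation, 10 were upregulated within microglia and 7 within pericytes, and both called differences were toward microglia. The median pericyte effect of the list was 1.69, with 2.48 in replicates 1 to 4 and 0.0 in replicates 5 and 6. In microglia it was 1.62, 1.89 and 1.04, respectively. *Lgals3* (chr14:47373813-47386160, plus strand, GRCm38), which encodes the lectin galectin-3 and is a marker of activated microglia, was 164 to 435 (median 293) in contralateral and 3309 to 26005 (median 12815.5) in ipsilateral microglia. In pericytes it was 291 to 914 (median 575.5) contralaterally and 542 to 7201 (median 1981.5) ipsilaterally. It rose in all replicates of both cell types, and the 6 microglial differences (3.61 to 6.69) lay above the 6 pericyte differences (0.42 to 2.98). The effects of 5.13 ± 0.41 and 1.87 ± 0.41 differed by -3.26 ± 0.58 (limma, adjusted p = 0.0198), and *Lgals3* alone kept its call with the block (adjusted p = 0.0288). In replicates 5 and 6 the difference was -3.13. *Lpl*, lipoprotein lipase, was 1078 to 1757 (median 1248) in contralateral and 9374 to 27761 (median 22982.5) in ipsilateral microglia and 856 to 1544 (median 1087) and 550 to 4238 (median 1920.5) in pericytes. Its pericyte differences were above 0 in replicates 1 to 4 and below 0 in replicates 5 and 6, and the effects differed by -3.33 ± 0.58 (limma, adjusted p = 0.0174, and 0.0526 with the block), and by -7.86 after subtraction of the microglial share. A size this large can depend on pericyte values that the subtraction set to 0. *Spp1*, the secreted glycoprotein osteopontin, was 2594 to 9637 (median 4368) and 87954 to 707269 (median 257206) in contralateral and ipsilateral microglia and 2050 to 9435 (median 4108.5) and 6133 to 112736 (median 29718.5) in pericytes. Its effects of 5.68 ± 0.52 and 2.61 ± 0.52 differed by -3.07 ± 0.74, which missed the threshold (limma, adjusted p = 0.0596, and 0.0526 with the block). It passed in replicates 5 and 6, where the difference was -3.54 (limma, adjusted p = 0.0182), and after subtraction of the microglial share, with -4.74 (limma, adjusted p = 0.0224). In replicates 1 to 4, *Spp1* differences in pericytes were 2.98 to 4.48, and in replicates 5 and 6 they were 0.82 and 0.56, and replicates 1 to 4 were also those with the higher microglia marker shares. The median difference of the list was 0.39 over all replicates and -0.8 in replicates 5 and 6.

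The matrix list held 26 tested genes, with a median difference of -0.64, and 19 of them were below 0. In replicates 5 and 6 the median was -1.33, with 24 of 26 below 0. *Fn1*, fibronectin, was called. It was 223 to 959 (median 488) in contralateral and 1280 to 3687 (median 2618) in ipsilateral microglia, against 1511 to 4234 (median 2465.5) and 1605 to 4750 (median 3118.5) in pericytes, and the effects differed by -1.97 ± 0.44 (limma, adjusted p = 0.0488, and 0.167 with the block). The microglial difference of replicate 2 (0.42) lay within the pericyte range. Most matrix genes were low in microglia, with 21 of 26 under 20% of the pericyte mean. Pericyte markers in microglial libraries were 0.674 to 2.59% of the pericyte level ipsilaterally and 0.183 to 1.59% contralaterally, and their part in these differences was not tested. Of 9 smooth muscle and contractile genes, 2 were downregulated within pericytes and 8 had a difference below 0. *Tpm1*, tropomyosin 1, was 43012 to 65102 (median 53738.5) in contralateral and 23671 to 44545 (median 25389) in ipsilateral pericytes and 247 to 772 (median 354) and 284 to 753 (median 369.5) in microglia. Its mean was 40790 in pericytes and 415.6 in microglia, and no pericyte share was subtracted from microglial libraries. *Tpm1* was downregulated in pericytes (effect -0.93 ± 0.17), had an effect of 0.14 ± 0.17 in microglia, and the effects differed by -1.07 ± 0.23 (limma, adjusted p = 0.0422, and 0.129 with the block). The sum of the 13 pericyte markers was also lower ipsilaterally in 5 of 6 pericyte replicates (mean difference -0.55 ± 0.62, SD, n = 6).

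Among the leading genes with a higher effect in pericytes, 5 of 10 rose in pericytes and fell in microglia (limma, adjusted p of 0.05 or less in each). *Arrdc3* (chr13:80883410-80896042, plus strand, GRCm38), which encodes an alpha-arrestin of receptor trafficking, had the smallest p among these. It was 1189 to 1814 (median 1681) in contralateral and 2200 to 4586 (median 3043) in ipsilateral pericytes, with no overlap. In microglia it was 1112 to 2809 (median 1674) and 619 to 1607 (median 1175), which overlapped, although each replicate was lower ipsilaterally. The effects of 0.97 ± 0.15 in pericytes and -0.64 ± 0.15 in microglia differed by 1.62 ± 0.22 (limma, adjusted p = 0.00628, and 0.0815 with the block), and in replicates 5 and 6 by 2.08. *Epb41l2*, a protein of the membrane skeleton, was 700 to 2762 (median 914) and 1450 to 3602 (median 1652.5) in contralateral and ipsilateral pericytes and 4874 to 5575 (median 5303.5) and 2392 to 3830 (median 2723) in microglia. Every pericyte replicate was higher and every microglial replicate lower ipsilaterally (difference 1.56 ± 0.22, limma, adjusted p = 0.00628, and 0.0771 with the block). *Runx1*, a transcription factor of blood and myeloid cells, had effects of 1.22 ± 0.2 in pericytes and -0.63 ± 0.2 in microglia (difference 1.85 ± 0.28, limma, adjusted p = 0.0108, and 0.0771 with the block). *Tmem176a*, a membrane protein of myeloid cells, had effects of 0.93 ± 0.17 and -0.58 ± 0.17 (difference 1.51 ± 0.24, limma, adjusted p = 0.0142, and 0.117 with the block).

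For 3 leading genes the pericyte level was a small part of the microglial level. *Lgals9*, galectin-9, was 147 to 540 (median 303.5) in contralateral and 574 to 2459 (median 948.5) in ipsilateral pericytes and 5485 to 7716 (median 6540.5) and 3940 to 8147 (median 5485.5) in microglia. The pericyte ranges did not overlap, while the microglial ranges did, and the effects differed by 2.18 ± 0.29 (limma, adjusted p = 0.00628, and 0.0745 with the block). *Il16*, the precursor of interleukin-16, was 1927 to 2918 (median 2420.5) in contralateral and 346 to 939 (median 641) in ipsilateral microglia and 48 to 143 (median 73.5) and 58 to 195 (median 130) in pericytes. The effects were -1.99 ± 0.25 in microglia and 0.59 ± 0.25 in pericytes, with a difference of 2.58 ± 0.35 (limma, adjusted p = 0.00628, and 0.0774 with the block). *Tmcc3*, a protein of the endoplasmic reticulum membrane, had effects of 1.26 ± 0.29 in pericytes and -1.28 ± 0.29 in microglia (difference 2.55 ± 0.41, limma, adjusted p = 0.0139, and 0.111 with the block). In replicates 5 and 6, where pericyte libraries held 0.083 to 0.171% of the microglia marker level, the differences were 1.41 for *Lgals9*, 2.01 for *Il16* and 1.36 for *Tmcc3*. After subtraction of the microglial share from each pericyte library the differences were 3.05, 3.56 and 1.95, in the same direction, and none of the 3 was called (limma, adjusted p = 0.232, 0.137 and 0.21). These sizes can depend on pericyte values that the subtraction set to 0.

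*Glul* and *Pik3ip1* had the larger absolute effect in microglia, where both were downregulated. *Glul*, glutamine synthetase, was 7592 to 12041 (median 9292) in contralateral and 2743 to 6205 (median 4419) in ipsilateral microglia and 1694 to 3522 (median 2090) and 2076 to 3505 (median 2671) in pericytes. The difference was below 0 in all 6 microglial replicates and above 0 in 5 of 6 pericyte replicates (difference 1.41 ± 0.24, limma, adjusted p = 0.0173, and 0.125 with the block). *Pik3ip1*, an inhibitor of PI3 kinase, fell in both cell types, with effects of -2.98 ± 0.24 in microglia and -0.95 ± 0.24 in pericytes. Its microglial levels, 562 to 2159 (median 1176.5) contralaterally and 50 to 215 (median 163) ipsilaterally, did not overlap, and the effects differed by 2.03 ± 0.34 (limma, adjusted p = 0.0173, and 0.0771 with the block). *Glul* and *Pik3ip1* were still called after the microglial share was subtracted (limma, adjusted p = 0.0224 and 0.0224).

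Members of the TGF-beta pathway pointed mostly toward pericytes. Of 23 tested genes 19 had a difference above 0, with a median of 0.76, and 2 were called. *Tgfbr1* (chr4:47353222-47414931, plus strand, GRCm38), the type I receptor, was 9171 to 15834 (median 13883) in contralateral and 4648 to 7593 (median 6590) in ipsilateral microglia, without overlap. In pericytes it was 232 to 676 (median 312) and 382 to 998 (median 630.5), which overlapped. The effects of 0.84 ± 0.2 in pericytes and -1.06 ± 0.2 in microglia had opposite signs (difference 1.9 ± 0.29, limma, adjusted p = 0.0108, and 0.0773 with the block). The pericyte mean was 5.24% of the microglial mean, the pericyte difference was 0.2 and 0.4 in replicates 5 and 6, and after subtraction of the microglial share the difference turned to -0.76 (limma, adjusted p = 0.848). The size and sign after the subtraction can depend on pericyte values set to 0. *Tgif1*, a repressor of Smad-driven transcription, had effects of 0.78 ± 0.19 in pericytes and -0.44 ± 0.19 in microglia (difference 1.22 ± 0.27, limma, adjusted p = 0.044, and 0.156 with the block). *Tgfbr2*, the type II receptor, had effects of 0.09 in pericytes and -0.67 in microglia, where it was downregulated, and its difference of 0.76 was not called. The ligand genes *Tgfb1*, *Tgfb2* and *Tgfb3* had differences of 1.85, -0.12 and 1.43, none of them called. The list had a median difference of 0.14 in replicates 5 and 6, with 12 of 23 genes above 0. Its median microglial effect was -0.87 in replicates 1 to 4 and -0.12 in replicates 5 and 6, and the median pericyte effect 0.15 and 0.1.

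Leaving out replicates 1 to 6 in turn left 0, 21, 0, 1, 3 and 2 genes with opposite effects, against 8 with all replicates. Those with a mean of 100 or more in both cell types were 7 genes, and the 8th was *Mlph*, which encodes a melanosome transport protein and is named here after its values were seen (mean 55.17 in pericytes, effects 2.19 in pericytes and -1.79 in microglia). Besides *Arrdc3*, *Epb41l2*, *Tgfbr1*, *Tmcc3* and *Tmem176a* these were *Rgs2* and *Gyg*. *Rgs2*, a regulator of G protein signaling, was 5397 to 8080 (median 6964.5) in contralateral and 1432 to 5532 (median 3236) in ipsilateral microglia and 190 to 765 (median 265.5) and 395 to 1253 (median 966.5) in pericytes, and its effects of 1.26 ± 0.31 in pericytes and -1.14 ± 0.31 in microglia differed by 2.4 ± 0.44 (limma, adjusted p = 0.0208, and 0.117 with the block). *Gyg*, glycogenin, the primer of glycogen synthesis, alone went the other way. It was 1087 to 1995 (median 1503.5) in contralateral and 493 to 1415 (median 845.5) in ipsilateral pericytes and 268 to 705 (median 484) and 580 to 949 (median 698.5) in microglia. Each pericyte replicate was lower and each microglial replicate higher ipsilaterally, although by only 0.02 in microglial replicate 2 (difference -1.4 ± 0.27, limma, adjusted p = 0.025, and 0.123 with the block).

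Homeostatic microglia genes gave the highest median difference of the pathway lists, and the values went with the microglia markers. Of 18 genes 17 had a difference above 0, with a median of 2.38, but only *Tgfbr1* was called. Of the 18 genes 5 were also among the 12 microglia markers. The median effect was -1.06 in microglia, where 6 were downregulated, among them *Tmem119* and *Gpr34* with effects of -1.6 and -1.41. In pericytes the median effect was 1.34, with 1 gene upregulated and 2 downregulated, and 15 of 18 had a pericyte mean under 20% of the microglial mean. In replicates 5 and 6 the median difference was 0.13, with 9 of 18 genes above 0, against 3.21 in replicates 1 to 4. The sum of the 12 microglia markers differed in the same direction (1.73 ± 2.25, SD, n = 6, in pericytes and -0.59 ± 0.22 in microglia, difference 2.32, two-sided exact permutation p = 0.00866, 0.0317 after adjustment over 11 marker lists). The sums of astrocyte markers (difference 1.86, exact p = 0.00433, adjusted 0.0317) and neutrophil markers (difference 5.26, exact p = 0.00649, adjusted 0.0317) did so as well. Gene by gene, the 7 tested neutrophil markers had a median effect of 3.75 in pericytes and 2.46 in microglia. Their median difference was 1.9, with 5 above and 2 below 0, and none was called. The 6 tested astrocyte markers had a median effect of 0.71 in pericytes and -0.15 in microglia. Their median difference was 0.76, with 5 above and 1 below 0, and none of them was called. The neutrophil marker sum of pericytes was at most 1659 contralaterally and 13946 ipsilaterally, while in microglia it spanned 6423 to 8037 contralaterally and 4388 to 19551 ipsilaterally. *Ly6g* and *Camp* were at 0 in every contralateral pericyte library, and *Ly6g* also in every contralateral microglial library. The astrocyte marker sum spanned 405 to 3828 in contralateral and 1445 to 4766 in ipsilateral pericytes, against 3088 to 5491 (contralateral) and 1285 to 4140 (ipsilateral) in microglia. The part of these cells in the gene differences was not tested.

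Of 24 cytokine and chemokine genes tested, 11 were upregulated within pericytes and 3 within microglia, and *Cxcl2* had a called difference. *Cxcl2*, a chemokine that attracts neutrophils, was 0 to 36 (median 4) in contralateral and 12 to 1211 (median 318.5) in ipsilateral pericytes and 489 to 2441 (median 991.5) and 1314 to 4714 (median 2734) in microglia. The pericyte differences were above the microglial ones in all cases, and the effects differed by 4.0 ± 0.85 (limma, adjusted p = 0.0407, and 0.123 with the block). The contralateral pericyte level was under 8 normalized counts in 5 of 6 libraries, and with a pseudocount of 10 the difference was 2.35 and not called (limma, adjusted p = 0.156). The difference was 2.35 in replicates 5 and 6. *Il6*, a cytokine of the acute response, was 108 to 450 (median 168) in contralateral and 1235 to 5110 (median 1784.5) in ipsilateral pericytes, without overlap, and 172 to 502 (median 292) and 298 to 1663 (median 460.5) in microglia. Its pericyte differences of 4.76 and 5.55, the highest of the 6, were those of replicates 5 and 6, which held the least microglia markers, but the difference in effect of 2.5 ± 0.63 was not called (limma, adjusted p = 0.0689, and 0.13 with the block). Of the 24 cytokine genes 15 had a pericyte mean under 20% of the microglial mean, and the median difference of the list was 2.29 over all replicates and -0.04 in replicates 5 and 6.

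Many immediate early genes fell in microglia. Of 23 immediate early and AP-1 genes 11 were downregulated within microglia and 1 within pericytes, 21 had a difference above 0, and the median difference was 0.77. It was 1.09 in replicates 1 to 4 and 0.14 in replicates 5 and 6, with 15 of 23 above 0. The median microglial effect of the list was -1.3 and -0.14 in these 2 sets, and the median pericyte effect -0.16 and 0.05. *Egr3*, a zinc finger transcription factor, was called. Its levels were low, with 45 to 143 (median 95) in contralateral and 0 to 84 (median 17) in ipsilateral microglia and 0 to 46 (median 13.5) and 6 to 106 (median 43) in pericytes, and its effects differed by 4.97 ± 1.1 (limma, adjusted p = 0.0459, and 0.156 with the block). The *Egr3* difference was 2.98 with a pseudocount of 10 (limma, adjusted p = 0.0225) and 6.69 with 0.1, where it was not called (limma, adjusted p = 0.0878). It was 1.49 in replicates 5 and 6. *Fosb* and *Jun*, with effects of -1.55 and -1.7 in microglia and -0.04 and -0.67 in pericytes, were downregulated in microglia, and their difference was not called. Of 28 Atf4 and unfolded protein genes 2 were called, and their median difference of 0.27 was -0.12 in replicates 5 and 6. *Ddit4*, an inhibitor of mTORC1 that is induced by stress, was 183 to 535 (median 275) in contralateral and 14 to 142 (median 66) in ipsilateral microglia, with no overlap, and 67 to 301 (median 200.5) and 172 to 422 (median 280) in pericytes (difference 3.17 ± 0.64, limma, adjusted p = 0.0334, and 0.0745 with the block). The *Ddit4* difference was 2.82 in replicates 5 and 6. *Xbp1*, a transcription factor of the unfolded protein response, was 2060 to 2945 (median 2818.5) in contralateral and 3672 to 6090 (median 4881.5) in ipsilateral pericytes, without overlap, and 5637 to 7177 (median 6329.5) and 3882 to 7807 (median 6086.5) in microglia (difference 0.9 ± 0.19, limma, adjusted p = 0.0422, and 0.153 with the block). The 18 matrix proteases and inhibitors had a median difference of -0.18 although their median effect was 1.56 in pericytes and 0.63 in microglia, so that these differ in sign. In replicates 5 and 6 the median difference of these genes was -0.65.

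**Figure D5:**
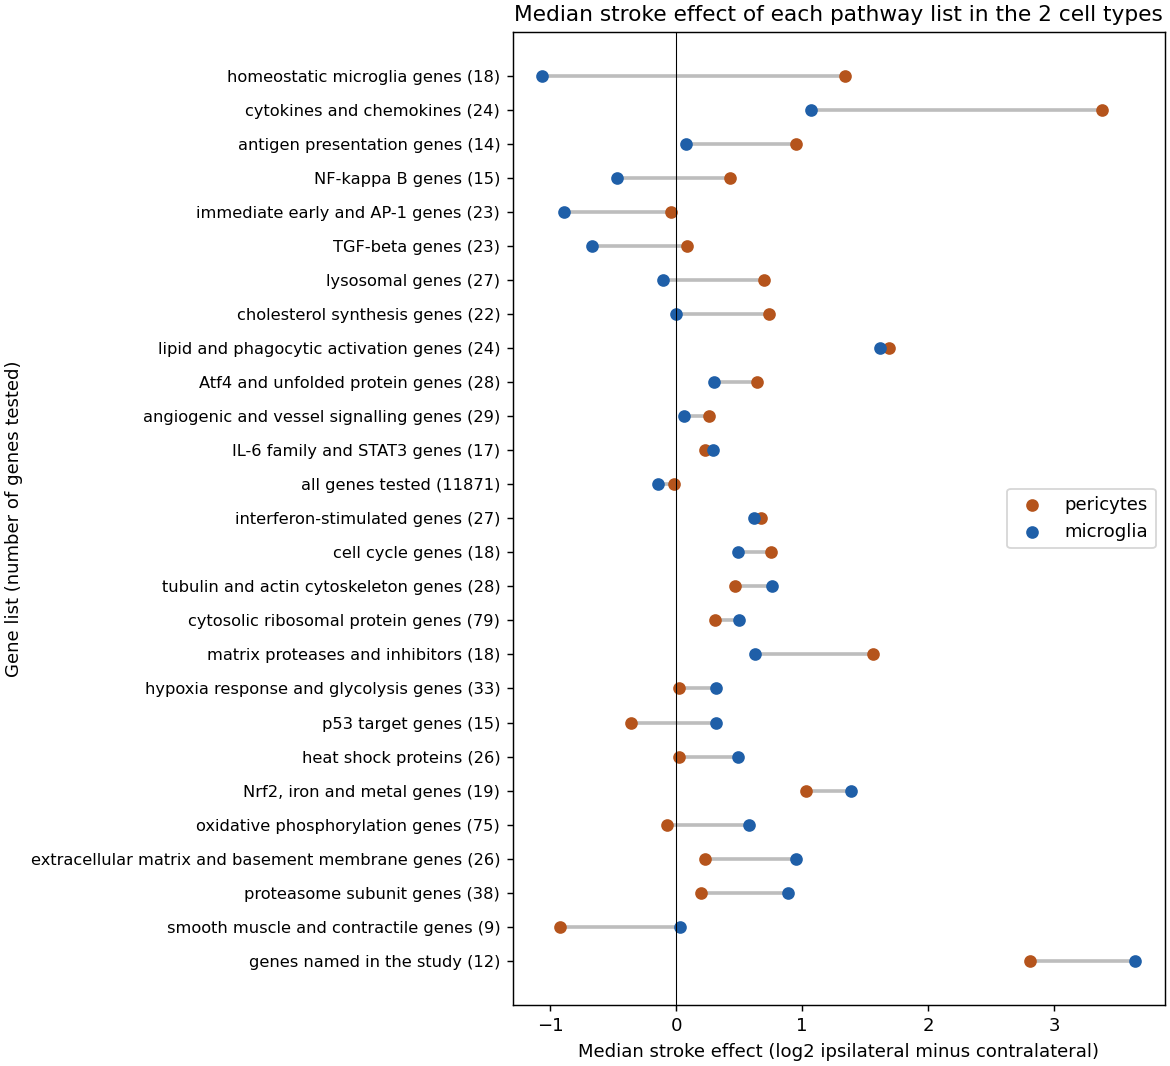
Median stroke effect (log2 ipsilateral minus contralateral, x axis) of the tested genes of each pathway list and of all genes tested (y axis, with the number of genes), in pericytes (orange) and microglia (blue). Lists are ordered by the median of the per-gene differences, from homeostatic microglia genes (2.38) at the top to the genes named in the study (-0.99) at the bottom.

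The remaining lists held no called difference. These were the interferon-stimulated genes (27 tested, median difference 0.08), antigen presentation (14, 1.09), NF-kappa B (15, 1.02), IL-6 family and STAT3 (17, 0.21), cholesterol synthesis (22, 0.46), cell cycle (18, -0.04), p53 targets (15, -0.42), angiogenic and vessel signalling (29, 0.23) and lysosomal genes (27, 0.67). In the same lists 14 of 14 antigen presentation genes, 21 of 22 cholesterol synthesis genes and 14 of 15 NF-kappa B genes had a difference above 0, against 6512 of 11871 over all genes. In replicates 5 and 6 the median difference was 0.54 for cholesterol synthesis, 0.53 for NF-kappa B and 0.4 for antigen presentation genes, so that the last 2 were lower there than over all replicates. It was also lower for lysosomal genes (0.2) and cell cycle genes (-1.21) and higher for interferon-stimulated genes (0.77). In the IL-6 family and STAT3 list the median difference was above 0 although the median effect was 0.23 in pericytes and 0.29 in microglia, and in the cell cycle list it was below 0 with 0.75 and 0.49. None of the marker lists of other cell types held a called gene.

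The study itself had singled out 13 stroke-regulated genes over all its sorted cell types. It named *Adamts4*, *Adamts9*, *Angpt2* and *Cxcr2* for endothelial cells, and *Lcn2* for astrocytes and pericytes. Endothelial cells and astrocytes are not compared here. Of the 13 genes 12 could be tested and 0 were called as different between pericytes and microglia (limma, adjusted p of 0.05 or less). *Ccl5* and *Adamts9* were at 0 in every library of one contralateral group, so that no fold is given for them. With the microglial share subtracted 2 of the 12 were called, *Spp1* as above and *Mmp12* (difference -7.15, limma, adjusted p = 0.0241), and in replicates 5 and 6 *Spp1* was. With a pseudocount of 10, *Spp1* (difference -3.07, limma, adjusted p = 0.0401) and *Il6* (difference 2.46, limma, adjusted p = 0.0487) passed. With 0.1, *Ccl5* passed (limma, adjusted p = 0.0215). The *Mmp12* difference was -0.97 without the subtraction and 1.23 with a pseudocount of 0.1, neither of them called. Its size after the subtraction can depend on pericyte values set to 0. Such a list is not independent evidence of direction. Within pericytes 8 and within microglia 9 of the 12 were upregulated. *Timp1*, an inhibitor of metalloproteinases and a gene of mural cells, was 517 to 5459 (median 1680.5) in contralateral and 3649 to 17831 (median 7582) in ipsilateral pericytes, and 0 to 21 (median 5.5) and 28 to 210 (median 57.5) in microglia, so that its microglial mean was 0.733% of the pericyte mean, while pericyte markers in microglia ranged from 0.183 to 2.59%. *Angpt2*, the vessel-destabilising ligand angiopoietin-2, was 2117 to 2914 (median 2419) and 3349 to 7315 (median 4998) in contralateral and ipsilateral pericytes and 0 to 34 (median 16) and 67 to 206 (median 147.5) in microglia, and the difference of -2.54 ± 0.82 was not called (limma, adjusted p = 0.14, and 0.255 with the block). *Mmp12*, macrophage elastase, was 6 to 60 (median 33.5) in contralateral and 2213 to 14533 (median 6029) in ipsilateral microglia, and 0 to 3 (median 0) and 0 to 1706 (median 349) in pericytes, where it was 0 in both hemispheres of replicate 5. *Il1rn*, the interleukin-1 receptor antagonist, was 0 in both hemispheres of pericyte replicates 5 and 6, and 73 to 205 (median 128.5) and 2190 to 11995 (median 5722.5) in microglia. *Ccl5*, a chemokine for T cells and monocytes, was at 0 in every contralateral pericyte library and 12 to 110 (median 25) ipsilaterally, against 33 to 77 (median 49.5) and 96 to 1146 (median 333) in microglia. *Cd44*, a hyaluronan receptor that also binds osteopontin, rose in all replicates of both cell types, with effects of 3.01 ± 0.57 in pericytes and 4.02 ± 0.57 in microglia (difference -1.01 ± 0.81, limma, adjusted p = 0.566, and 0.53 with the block). *Lcn2*, the iron carrier lipocalin-2, also rose in all 12 (effects 2.58 ± 0.44 and 3.72 ± 0.44, difference -1.14 ± 0.62, limma, adjusted p = 0.383, and 0.419 with the block). *Cxcr2*, a neutrophil chemokine receptor, was at 0 in both hemispheres of pericyte replicates 1, 5 and 6 and 0 to 831 (median 142) in ipsilateral pericytes as a whole. *Adamts4* and *Adamts9*, proteases of matrix proteoglycans, were 1858 to 8430 (median 4007) and 82 to 396 (median 137.5) in ipsilateral pericytes and 2 to 317 (median 114.5) and 2 to 88 (median 14.5) in ipsilateral microglia.

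Other genes rose in both cell types without a called difference. Of the 67 genes upregulated in both, 3 had a called difference, and among those with a mean of 100 or more in both cell types the 5 with the most certain effects had none. *Lrg1*, a secreted glycoprotein of the acute phase and of vessel growth, had effects of 2.26 ± 0.22 in pericytes and 2.26 ± 0.22 in microglia, with a difference of 0.0 ± 0.32. *Capg*, an actin capping protein, had 1.94 ± 0.22 and 2.28 ± 0.22 (difference -0.33 ± 0.32), and *Tubb6*, a beta-tubulin, 1.58 ± 0.19 and 1.41 ± 0.19 (difference 0.16 ± 0.27). *Hilpda*, a hypoxia-induced protein of lipid droplets, had 1.62 ± 0.23 and 1.84 ± 0.23 (difference -0.22 ± 0.33), and *Ddx39*, an RNA helicase of mRNA export, 1.2 ± 0.17 and 1.18 ± 0.17 (difference 0.02 ± 0.25). A missed threshold does not show that the effects were equal.

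The called genes were also examined in values corrected for the microglial share. In a correction chosen after seeing the data, the median ratio of the microglia markers was taken as the microglial share of each pericyte library, and this share of the microglial library was subtracted. Of the 70 genes with a higher effect in pericytes 67 kept their direction and 23 were still called. Of the 70 with a higher effect in microglia 70 kept their direction and 58 were called. The totals were 29 and 93. Microglia markers in pericyte libraries were higher ipsilaterally in replicates 1 to 4, so the subtraction shifted differences toward microglia. The median over all genes went from 0.09 to -0.14. A kept direction toward microglia, for genes or lists, is therefore not independent support. All 140 genes kept their direction in replicates 5 and 6, and likewise in replicates 1 to 4. Both sets of replicates had entered the calls, so the kept direction is not independent support. The difference in replicates 5 and 6 was smaller by more than 1.5 times for, among others, *Anxa5* (-1.42), *2010111I01Rik* (-1.28), *Ccnd2* (-1.07), *Cryab* (-0.52), *Epb41l2* (0.95), *Prdx1* (-0.81), *Psmd4* (-0.65) and *Tpm1* (-0.63). Of the 70 and 70 called genes, 30 and 48 had means within 5-fold of each other in both cell types, and when only such genes were fitted 23 and 40 of them were called. Lists with a median difference toward microglia kept it after the subtraction, with -0.44 for hypoxia and glycolysis, -0.86 for the proteasome and -0.74 for oxidative phosphorylation genes, against -0.14 over all genes. Cytokine genes went from 2.29 to 0.43 and homeostatic microglia genes from 2.38 to 1.21.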

How the data were processed

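RNA of sorted cells had been amplified with a SMART-Seq HT kit and sequenced as single 75-base reads. According to the methods and processing notes, the authors trimmed reads with Trimmomatic 0.38, aligned them to GRCm38 with STAR 2.6.1d, counted them per gene with featureCounts 1.6.3 and normalized the counts with DESeq2 1.18.1. The deposited values are such normalized counts rounded to whole numbers by the authors and were therefore treated as a score, not as raw counts, and no count test was run on them. Columns with fold changes and p-values of the authors' own comparisons were not used.

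Each replicate's ipsilateral minus contralateral difference of log2(value + 1) was computed for each gene whose mean reached 10 in both cell types. The 6 pericyte and 6 microglial differences were compared with limma 3.58.1 (R 4.3.3) with a trended variance prior and Benjamini-Hochberg adjustment. A gene was called at an adjusted p of 0.05 or less with a difference of at least 1.5-fold in either direction. Errors after ± are moderated standard errors unless given as SD. Sums of marker lists were compared by two-sided exact permutation of 924 splits, whose smallest p is 0.00216. The depth was estimated from the step between low values (the value of 1 read, 0.73 to 2.36). Coordinates are those of the deposited table. The scripts were tested on simulated data. Python 3.11.15 and pandas 2.3.3 were used.

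By the design of the study, the cell types and hemispheres of a pool were isolated together. Same-numbered libraries were taken to come from the same pooled mice, which the sample labels do not state. Deviations of same-numbered pericyte and microglial differences correlated by -0.11 to 0.06, and those of the hemispheres by -0.09 to 0.44 in pericytes and -0.05 to 0.37 in microglia. Libraries of a group correlated by 0.641 to 0.958, and none were near-identical. Whether the pools of different numbers were independent in surgery or sorting is not stated, and p-values measure the spread between these pools only.

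Genes were named by a rule: the 10 genes with the smallest p in each direction among those called with means of 100 or more in both cell types and the same direction at all 6 replicate numbers, up to 10 genes with opposite effects, up to 4 called members of each list, the tested genes of the list the study had named, and 5 genes changed alike in both cell types. Exceptions are marked, and 1 gene that the rule names is not reported here. The comparison, the members and the 37 lists were chosen with earlier results of these data known. Alternatives changed the pseudocount, the filter, the variance prior, the scaling, the replicate block and the replicates used.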

Additional observations from a re-analysis of the deposited data

Results flagged for a closer look

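The stroke effect differed between pericytes and microglia for 140 genes, which is itself a difference between groups under one contrast and is described above.

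Of 120 groups of 6 differences examined for the named genes (60 genes in both cell types), 9 held 1 replicate far from the other 5 by Dixon's criterion at the 95% level, where chance gives about 1 in 20. Microglial replicate 2 was the distant one in 5 of the 9. It had a difference of -5.18 for *Adamts4*, 3.15 for *Hilpda*, 1.83 for *Ndufa10*, 0.27 for *Tcp1* and -0.56 for *Xbp1*. Pericyte replicate 4 was distant for *Cd44* (6.76), whose contralateral level was 9 there, and for *Ndufa10* (-1.28). Pericyte replicate 2 was distant for *Iqgap1* (0.27), and microglial replicate 3 for *Tgfbr1* (-1.53). Leaving out replicate 2 gave 243 called genes.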

How the results depend on the processing

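Counts of called genes below are given as total, effect higher in pericytes and effect higher in microglia, against 140, 70 and 70. They were 239, 146 and 93 with a pseudocount of 10, 63, 23 and 40 among genes with means within 5-fold, 26, 15 and 11 without a variance trend, and 12, 4 and 8 in replicates 1 to 4. With the replicate block they were 1, 0 and 1, at 1653 unadjusted p under 0.05. In alternatives chosen after seeing the data they were 83, 44 and 39 with a replicate block of estimated correlation (-0.07), 2, 0 and 2 in replicates 5 and 6, and 122, 29 and 93 with the microglial share subtracted. A filter of more than 10 in all replicates of a hemisphere gave 108 genes with a higher effect in pericytes. Leaving out 1 replicate gave 3 to 243, 2 to 117 and 1 to 126 calls, with the lowest without replicate 4 and the highest without replicate 2.

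Opposite effects (8 genes) numbered 5 with a pseudocount of 0.1, 15 with 10, 4 with a mean of at least 1, 5 within 5-fold, 1 in replicates 1 to 4, 1 with the share subtracted, 0 in replicates 5 and 6, 0 without a variance trend, 0 with the replicate block, 0 in a fit of all 24 libraries with no replicate block, and 0 to 21 with 1 replicate left out. Genes called within pericytes numbered 240 within 5-fold, 130 without a trend, 259 in replicates 1 to 4, 137 in replicates 5 and 6, 122 with the share subtracted and 72 to 708 with 1 replicate left out. Within microglia they numbered 393, 120 and 731 in replicates 1 to 4, in replicates 5 and 6 and with the share subtracted, and 596 to 904 with 1 replicate left out. Rescaling within a cell type or centring the differences left all these counts within 1.5 times. The causes were not tested, except that fewer samples or genes entered some fits.

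For the 43 called named genes, 614 of 971 values under the alternatives stayed called in the same direction and 356 missed the threshold. *Tgfbr1* reversed, to -0.76, with the share subtracted (limma, adjusted p = 0.848). Of 376 values of the other 17 named genes, 14 passed the threshold. The differences of the marker sums were 1.47 to 2.78 (microglia), 1.58 to 2.13 (astrocytes) and 4.21 to 6.24 (neutrophils) with 1 replicate left out. They were 3.21, 2.16 and 6.05 in replicates 1 to 4. In most of these the p-values missed the threshold after adjustment. Fewer splits exist there and some differences were smaller, and the part of each was not tested. Genes near the worth of 3 reads, at most 8 normalized counts, are limited by depth.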
